A study of Mus musculus with 15 samples.

Results

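Trimethylation of lysine 27 and dimethylation of lysine 36 on histone H3 (H3K27me3 and H3K36me2) were compared gene by gene in EL4 cells. The comparison covered the autosomal protein-coding genes whose span, introns included, was at least 20 kb, which were 9575 of 20661. For each gene, the percent of the span under called intervals was computed from the base pairs present in both replicates of a mark. Genes with at least 20% under H3K27me3 and less under H3K36me2 were called H3K27me3 only, and the reverse were called H3K36me2 only. Genes with at least 20% under each mark were called both, and genes below 20% for each mark were called neither.

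EL4 is a mouse T lymphocyte lymphoma line of strain C57BL/6N. The cells carried no treatment or genetic change in these assays, and all libraries came from this line, so the comparison was between marks and not between conditions. The series mapped 5 histone marks by chromatin immunoprecipitation and sequencing (ChIP-seq) and open chromatin by ATAC-seq, each with 2 replicates, and 12 of its 15 samples had a list of called intervals that was used here. The methods call the pairs of replicates whose peaks were merged technical, and the labels name no separate cultures, so every SD given here measures the spread between libraries and not between cultures.

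H3K27me3 is written by Polycomb repressive complex 2, through its enzyme EZH2 or EZH1, and is known to lie in broad domains over genes that a cell lineage keeps silent. H3K36me2 is written mainly by NSD1, NSD2 and ASH1L and is known to cover wide stretches of active chromatin, within genes and between them. In biochemical assays, methylated lysine 36 hampers the methylation of lysine 27 on the same histone tail by Polycomb repressive complex 2. H3K4me3, H3K9ac and H3K27ac mark active gene starts, H3K27ac also marks active enhancers, and ATAC-seq cuts open DNA.

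The label of the cells was checked on genes that define a cell type. All 10 T cell markers, among them Cd3e, Cd3d, Lck, Thy1 and Tcf7, held H3K4me3 and H3K27ac peaks within the gene in both replicates. Of 6 B cell markers only Pax5 held both, and of 6 myeloid markers Spi1 and Itgam did. None of 4 epithelial markers held either, whereas Pdgfra, of 4 fibroblast markers, held both and Col1a1 held H3K4me3.

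The lists of called intervals covered 257 Mb of the autosomes in H3K27me3 replicate 1 and 295 Mb in replicate 2, of which 184 Mb were shared. H3K36me2 covered 304 and 302 Mb, of which 220 Mb were shared. The lists give no read counts or scores, so depth is unknown. With 2 libraries per mark, the smallest two-sided p of an exact permutation test would be 0.333. No test was therefore run, and differences are set beside the values of each replicate.

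H3K27me3 and H3K36me2 divided the marked genes almost completely. Class H3K27me3 only held 999 genes (10.4% of all), class H3K36me2 only held 3795 (39.6%), class both held 7 (0.0731%) and class neither held 4774 (49.9%). These shares are those the rule itself fixed. In replicate 1 alone, the numbers were 1332 for H3K27me3 only, 4545 for H3K36me2 only, 25 for both and 3673 for neither. In replicate 2 alone, they were 1518, 4510, 33 and 3514 in the same order. H3K36me2 only was thus the larger of the marked classes in every replicate, and class both held at most 0.345% of genes in each.

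Marked genes mostly held nothing of the other mark. Of the 999 genes of class H3K27me3 only, 919 (92.0%) had no base pair under H3K36me2, against 45.0% of all genes. Of the 3795 genes of class H3K36me2 only, 3744 (98.7%) had none under H3K27me3, against 78.3% of all genes. In single replicates, the shares were 86.8% and 88.8% in class H3K27me3 only and 97.7% in each in class H3K36me2 only. The class rule itself kept the other mark below the threshold. The median coverage was 43.9% by H3K27me3 in class H3K27me3 only and 56.8% by H3K36me2 in class H3K36me2 only. Over all 9575 genes, the coverage by one mark and by the other had a Pearson r of -0.28 and a Spearman rho of -0.44. These describe genes of the same 4 libraries, which are not independent replicates.

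**Figure D1:**
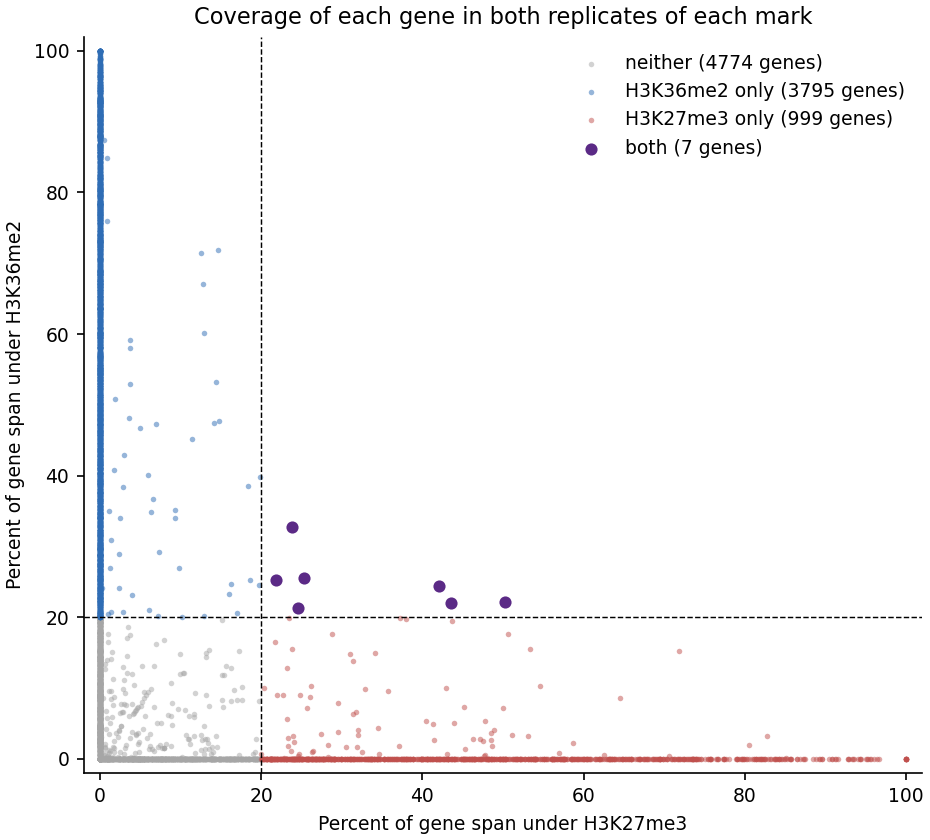
Percent of the span of each of 9575 genes under H3K27me3 (horizontal axis) and under H3K36me2 (vertical axis), counting base pairs covered in both replicates, with dashed lines at 20%. Genes lie along the axes, and only the 7 genes of class both lie in the upper right field.

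The replicates gave the same class to 8606 genes (89.9%). Only 6 genes were H3K27me3 only in 1 replicate and H3K36me2 only in the other, while 943 (9.85%) had a mark in 1 replicate and neither in the other. Across genes, the coverages of the replicates had a Pearson r of 0.941 for H3K27me3 and 0.945 for H3K36me2. They differed by more than 20 percentage points at 342 genes for H3K27me3 and at 868 genes for H3K36me2. Of the 4774 genes of class neither, 3122 were neither in each replicate alone, whereas 233 were H3K27me3 only and 467 were H3K36me2 only in each. In these latter genes each replicate called the mark over at least 20% of the span, but less than 20% was common to both.

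All 7 genes of class both held the marks in separate stretches. The gene Egf encodes epidermal growth factor, the ligand of the EGF receptor, and lies at chr3:129677574-129755322. H3K27me3 covered 25.4% of Egf in replicate 1 and 35.7% in replicate 2, and H3K36me2 covered 30.1% and 42.2%. In both replicates of each mark, H3K27me3 took the first 27.5 kb from the start, with a gap, and H3K36me2 took stretches from 34.1 to 67.1 kb.

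Dock1 encodes an exchange factor that activates the small GTPase RAC and spans 503 kb at chr7:134670687-135173647. Its coverage by H3K27me3 was 29.3% in replicate 1 and 35.7% in replicate 2, against 37.4% and 35.7% by H3K36me2. The shared H3K27me3 stretches ran from 51.9 to 268 kb after the start, and the shared H3K36me2 stretches from 291 kb to the end of the gene. Thus 24 stretches of the first mark were followed by 18 of the other with a single change of mark.

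Adcy1, an adenylate cyclase of neurons (chr11:7063433-7178506), had 50.6% and 65.0% under H3K27me3 and 23.98% and 23.5% under H3K36me2 in replicates 1 and 2. Pdzd2, a protein with PDZ domains (chr15:12359711-12739968), had 48.1% and 52.1% under H3K27me3 and 25.6% and 25.2% under H3K36me2. In both genes H3K27me3 lay on the side of the start, and the marks were 6.60 kb apart in Adcy1 and 51.8 kb apart in Pdzd2.

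Kcnip1, a subunit that binds potassium channels (chr11:33629339-33993348), had the opposite order. The coverage of Kcnip1 was 50.2% and 53.8% by H3K27me3 and 23.8% and 25.5% by H3K36me2. H3K36me2 took stretches within the first 106 kb after the start and H3K27me3 took those from 120 kb to near the end.

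The strand of the remaining pair of genes was not in the reference table. Spink13, a protease inhibitor of the Kazal type (chr18:62607499-62741387), had 29.1% and 31.4% under H3K27me3 and 32.0% and 31.1% under H3K36me2. Myrf, a transcription factor of myelinating cells (chr19:10208271-10240777), had 30.1% and 44.8% under H3K27me3 and 21.3% and 21.9% under H3K36me2. Their marks were 22.2 kb apart in Spink13 and 11001 bp apart in Myrf. Dock1, Kcnip1 and Spink13 each overlap 1 other protein-coding gene, so that stretches there belong to the span of both.

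**Figure D2:**
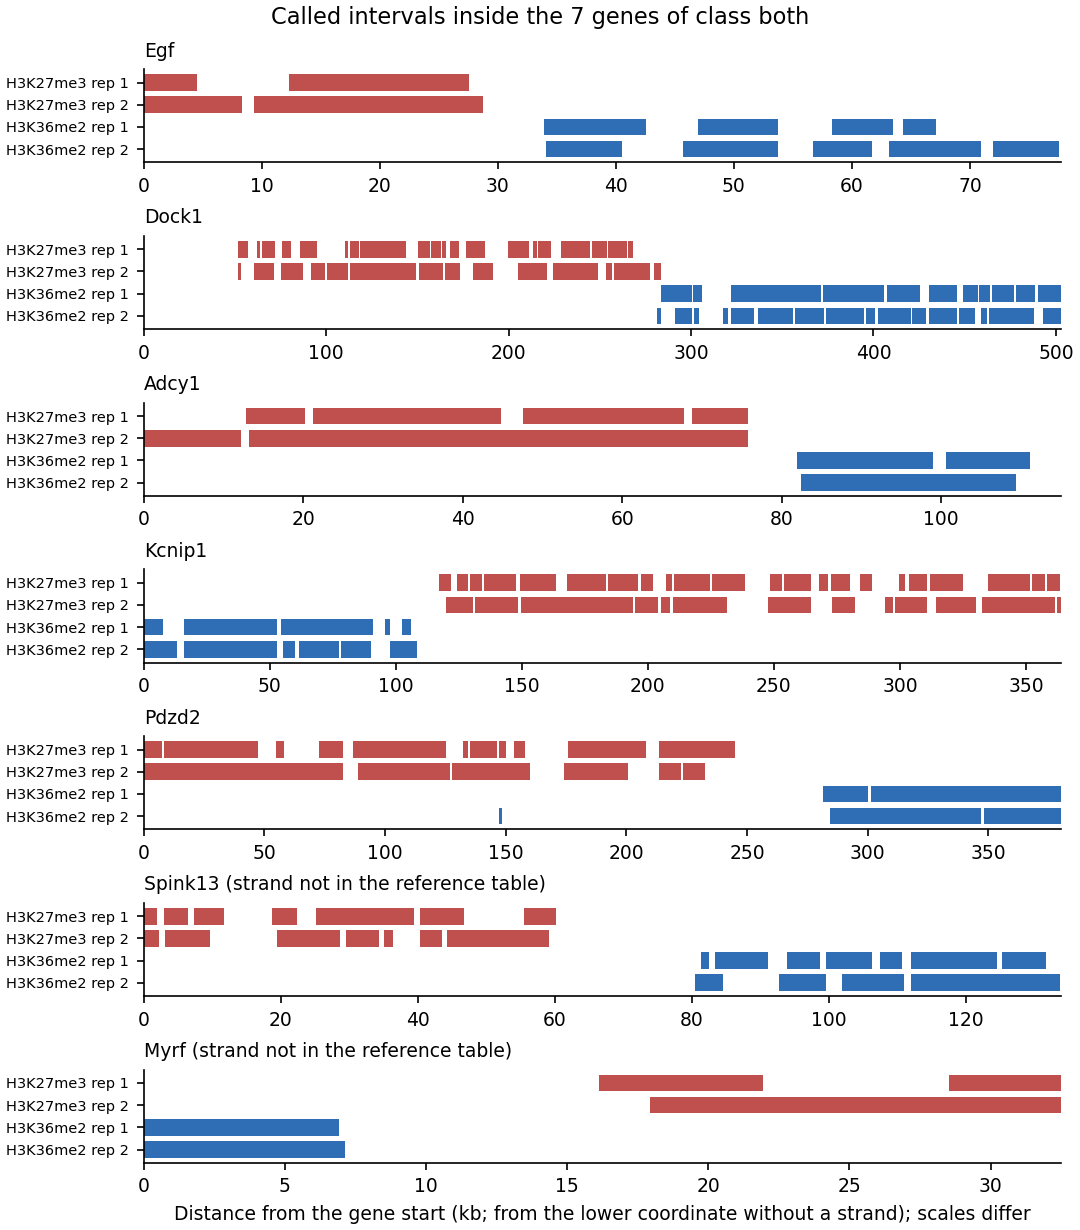
Called intervals of H3K27me3 (red) and H3K36me2 (blue) in each replicate inside the 7 genes of class both, by distance in kb from the gene start, or from the lower coordinate for Spink13 and Myrf. In each gene the stretches of the 2 marks occupy different sides, apart from 1 short H3K36me2 interval of Pdzd2 and 1 of Dock1 that replicate 2 alone held beside or within H3K27me3.

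The sequences just before the start of Dock1 and Adcy1 are shown because neither start held a peak of any of the other 4 assays, although the genes held such peaks further inside. They are the 250 bases before the RefSeq start (GRCm38.p6), 5′ to 3′, with each CG in capitals, for Dock1 at chr7:134670437-134670686, plus strand, and for Adcy1 at chr11:7063183-7063432, plus strand.
Dock1: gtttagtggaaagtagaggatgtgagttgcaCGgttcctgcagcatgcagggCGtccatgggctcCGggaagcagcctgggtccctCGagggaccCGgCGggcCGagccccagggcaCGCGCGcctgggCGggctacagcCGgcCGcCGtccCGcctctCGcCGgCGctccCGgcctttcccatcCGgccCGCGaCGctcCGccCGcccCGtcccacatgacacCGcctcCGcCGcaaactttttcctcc
Adcy1: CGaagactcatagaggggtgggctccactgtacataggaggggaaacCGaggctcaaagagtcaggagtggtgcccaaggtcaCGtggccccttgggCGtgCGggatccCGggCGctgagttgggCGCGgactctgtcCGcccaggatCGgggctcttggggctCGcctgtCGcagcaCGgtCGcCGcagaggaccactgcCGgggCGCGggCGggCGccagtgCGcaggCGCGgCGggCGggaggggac
These windows held 29 CG in Dock1 and 26 in Adcy1, whereas that of Egf held 0, that of Kcnip1 held 6 and that of Pdzd2 held 16. Among all 7569 genes with such a window, 97.2% held at least 1 CG and the median was 14.

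Within the 7 genes, peaks of active chromatin lay outside the H3K27me3 stretches. H3K27ac peaks, which had no part in the choice of genes, covered 7.23% of the H3K36me2 stretches in replicate 1 and 7.81% in replicate 2, against 0% of the H3K27me3 stretches in each. They covered 2.67% and 2.70% of the stretches without either mark. ATAC-seq peaks went the other way, with 0.567% and 0.618% of the H3K36me2 stretches against 0.642% and 0.838% of those without either mark. H3K4me3 covered 2.74% and 2.46% of the former and 2.28% and 2.11% of the latter. For H3K9ac the values were 2.82% and 2.94% against 2.10% in each replicate. In Dock1, H3K27ac covered 15522 bp in replicate 1 and 16509 bp in replicate 2, of which 7823 and 8958 bp lay in H3K36me2 stretches and none in H3K27me3 stretches. In Kcnip1, 653 bp of H3K4me3 common to both replicates lay in H3K27me3 stretches, and this was the only overlap with H3K27me3 among peaks found in both replicates of an assay.

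The wider set of genes with any base pair of both marks held 313 genes (3.27%), with a median span of 145 kb. They comprised 175 genes of class neither, 80 of H3K27me3 only, 51 of H3K36me2 only and the 7 of class both. A single change of mark along the gene was found in 270 of them (86.3%). Overlapping genes that share stretches, such as the protocadherin genes Pcdhga2 and Pcdhga3 of chromosome 18, were each counted, so the genes are not independent. The closest stretches of different marks were a median of 26.001 kb apart, and 10 genes had them within 1 kb. H3K27ac covered 4.63% and 4.80% of the H3K36me2 stretches in replicates 1 and 2, and 0.0410% and 0.0467% of the H3K27me3 stretches. H3K4me3 covered 1.63% and 1.53% of the former and 0.0848% and 0.0855% of the latter. For each of these marks the stretches differed by far more than the replicates did.

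H3K27me3 lay nearer the start in most genes that held both marks and whose strand was known. This was so in 179 of 230 genes (77.8%) with base pairs common to both replicates. It was so in 303 of 444 genes (68.2%) in replicate 1 alone and in 298 of 422 (70.6%) in replicate 2 alone. The order was thus the same in direction in each replicate, with a lower share.

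Only 5 genes held both marks at the same position, over 19845 bp in all. The largest total per gene was 8598 bp in Cdh13, which encodes a cadherin without a transmembrane part. Cdh13 changed between marks 5 times along 1184913 bp and had 38.4% and 43.3% under H3K27me3 and 22.3% and 24.3% under H3K36me2 in replicates 1 and 2. The others were Fchsd2 (5198 bp), Lhfpl3 (3199 bp), Bicral (2399 bp) and Rictor (451 bp). Of these, Rictor encodes a subunit of mTOR complex 2 and had 94.8% and 90.9% of its span under H3K36me2 in replicates 1 and 2, with the H3K27me3 common to both at the very start of the gene.

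When 20% had to be reached by each mark in each replicate alone, 17 genes passed in place of 7. Among the 10 further genes were Apba1, Upp2 and the Polycomb genes Pcgf5 and Phc2. Pcgf5, a subunit of Polycomb repressive complex 1, had 29.8% and 38.9% under H3K27me3 and 24.3% and 30.0% under H3K36me2. Phc2, another such subunit, had 28.7% and 24.4% under H3K27me3 and 31.4% and 26.8% under H3K36me2. With base pairs common to both replicates, Pcgf5 had 19.9% under H3K36me2 and Phc2 had 19.7% under H3K27me3. These genes were singled out after their values had been seen.

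Genes of class H3K27me3 only with the highest coverage encode receptors, secreted proteins, adaptors and enzymes. The endocytic adaptor gene Dab2 (chr15:6299788-6440715) had 97.0% of its span under H3K27me3 in replicate 1 and 97.7% in replicate 2, and 0% under H3K36me2 in each. The synaptic exchange factor gene Iqsec3 (chr6:121372927-121473738) had 93.8% and 93.6%. The prolactin receptor gene Prlr (chr15:10177238-10349190) had 94.1% and 89.6%, and it was the only gene of this group with H3K36me2, at 7.21% in replicate 1 alone. The group was chosen as the 8 highest of at least 100 kb, so its high values follow from the rule.

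The remaining genes of this group were the ubiquitin ligase gene Marchf11 (96.1% and 92.9%), the secreted protease gene Adamts12 (92.1% and 94.2%) and the WNT agonist gene Rspo2 (92.3% and 91.4%). The actin nucleator gene Cobl had 92.1% and 93.6%, and the secreted glycoprotein gene Nell2 had 87.4% and 92.3%. Of the 8 genes, 6 lie on chromosome 15: Dab2, Marchf11, Adamts12, Rspo2, Prlr and Nell2. That chromosome holds 364 of the 9575 genes and 68 of the 999 of class H3K27me3 only. H3K27me3 covered 18.8% of its summed gene span, against 7.72% over all autosomes, and the 8 genes were chosen by the same coverage. None had a peak of H3K4me3, H3K9ac or H3K27ac at the start in either replicate. Only Iqsec3 had an ATAC-seq peak there, in both replicates.

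The windows before the starts of Iqsec3 and Dab2 are printed to set the gene of this group with open chromatin at its start beside the gene with the highest coverage. They are again 250 bases 5′ to 3′ from RefSeq (GRCm38.p6) with CG in capitals, and the RefSeq start of Iqsec3 lies 60 bp inside the end of its span. They lie for Iqsec3 at chr6:121473679-121473928, minus strand, and for Dab2 at chr15:6299539-6299788, plus strand.
Iqsec3: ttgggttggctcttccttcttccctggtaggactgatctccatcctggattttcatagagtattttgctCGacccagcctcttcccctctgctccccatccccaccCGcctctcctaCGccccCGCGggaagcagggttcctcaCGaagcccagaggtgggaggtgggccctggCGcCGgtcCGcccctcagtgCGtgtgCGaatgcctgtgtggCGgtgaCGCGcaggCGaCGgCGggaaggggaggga
Dab2: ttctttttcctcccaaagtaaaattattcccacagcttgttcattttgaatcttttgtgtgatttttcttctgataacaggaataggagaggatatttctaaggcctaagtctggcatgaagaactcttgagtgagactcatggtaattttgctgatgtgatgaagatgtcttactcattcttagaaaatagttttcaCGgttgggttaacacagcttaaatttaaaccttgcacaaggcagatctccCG
The window of Iqsec3 held 17 CG and that of Dab2 held 2. Of the other genes of this group with a window, Cobl held 36, Marchf11 held 21, and Adamts12 and Prlr held 6 each. None of these other starts had an ATAC-seq peak, and their CG counts lay both above and below that of Iqsec3. A link between CG content and open chromatin was not tested.

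Genes of class H3K36me2 only with the highest coverage were covered almost end to end. The glycosyltransferase gene Galnt2 (chr8:124231394-124345722), which starts mucin-type O-glycosylation, had 99.3% of its span under H3K36me2 in replicate 1 and 99.99% in replicate 2. The kinase gene Mtor (chr4:148448582-148557685), the catalytic subunit of mTOR complexes, had 98.3% and 96.9%. All 8 genes had 0% under H3K27me3 in each replicate.

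The exoribonuclease gene Eri3 had 100% and 99.2%, the gene Ssbp3 of a DNA-binding cofactor had 98.6% and 100%, and the lipid transfer gene Pitpnm2 had 98.8% and 99.4%. The signalling adaptor gene Cmip had 98.4% and 98.2%, and Vac14, the scaffold of a lipid kinase, had 98.0% and 97.4%. In contrast to the H3K27me3 group, all 8 starts held peaks of H3K4me3, H3K9ac, H3K27ac and ATAC-seq in both replicates. Ssbp3 is shown as a start in a CG-rich window with 43 CG and Mtor as one with 19 CG, with all 4 kinds of peak at each. Their windows lie at chr4:106911220-106911469, plus strand, and at chr4:148448332-148448581, plus strand (GRCm38.p6, RefSeq).
Ssbp3: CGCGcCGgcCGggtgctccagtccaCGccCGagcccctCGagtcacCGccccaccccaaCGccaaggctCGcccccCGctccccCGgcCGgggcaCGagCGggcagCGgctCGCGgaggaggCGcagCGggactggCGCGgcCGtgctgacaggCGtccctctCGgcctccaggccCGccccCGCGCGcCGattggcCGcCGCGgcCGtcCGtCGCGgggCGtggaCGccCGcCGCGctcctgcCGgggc
Mtor: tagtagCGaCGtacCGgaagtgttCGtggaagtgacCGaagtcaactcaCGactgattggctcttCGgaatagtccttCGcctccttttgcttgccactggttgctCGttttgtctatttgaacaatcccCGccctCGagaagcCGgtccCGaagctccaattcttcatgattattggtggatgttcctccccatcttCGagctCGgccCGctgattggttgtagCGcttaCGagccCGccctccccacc

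The longest genes of class neither encode adhesion proteins of neurons and a lipoprotein receptor. Ptprd, a receptor phosphatase of 2270506 bp, had 0% under H3K27me3 in each replicate and 0.0704% and 0% under H3K36me2. Lsamp had 0.264% and 0.491% under H3K27me3, and Lrp1b had 2.12% and 0.981%. In contrast, Cntnap2 had 24.6% and 27.7% under H3K27me3 in replicates 1 and 2 but 16.3% in common, so that it was H3K27me3 only in each replicate alone.

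The genes nearest to the 20% limit are given as a description. Just inside it for H3K27me3 were Gsdmc3 and Cacna2d1, with 20.02% and 20.03% in common, and just outside were Wwc1 and Bdkrb2, with 19.98% and 19.95%. For H3K36me2, Cep63 and Sdha lay just inside at 20.001% and 20.003%, and Zfp341 and Glyr1 lay just outside at 19.99% and 19.97%. Among genes of at least 100 kb, the replicates differed most for H3K27me3 in Gsg1l (22.02% and 53.1%) and Cdh6 (46.3% and 76.7%). For H3K36me2 they differed most in Alpk2 (48.4% and 18.5%) and Tlk2 (44.2% and 72.8%).

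Active marks at the gene start followed the classes. A gene start was counted as marked when a peak lay within 1 kb to either side, and both gene ends were used for the genes without a known strand. H3K4me3 marked 84.5% ± 0.0186 (SD, n = 2 replicates) of the starts of class H3K36me2 only, 32.6% ± 0.0889 of class neither and 4.70% of class H3K27me3 only, with the same value in both replicates. H3K27ac marked 84.8% ± 0.0373, 31.4% ± 0.0592 and 4.00% ± 0.142, and H3K9ac marked 84.2% ± 0.0559, 31.3% ± 0.0148 and 4.20% ± 0.142, in the same order. ATAC-seq peaks lay at 79.0% ± 0.969, 27.8% ± 0.578 and 3.75% ± 0.354. The gaps between classes were thus many times the spread between replicates for each of the 4 assays.

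The order of these 3 classes was the same on all 19 autosomes for H3K4me3, H3K9ac, H3K27ac and ATAC-seq. For H3K4me3, the share ranged from 78.0 to 90.6% of starts in class H3K36me2 only, from 19.9 to 44.2% in class neither and from 0 to 14.3% in class H3K27me3 only. All 4 kinds of peak were present at 2900 starts of class H3K36me2 only (76.4%), at 1243 of class neither (26.04%) and at 27 of class H3K27me3 only (2.70%). None was present at 563 (14.8%), 3195 (66.9%) and 949 (95.0%) of them. None of the 7 genes of class both had any of these peaks at the start in either replicate.

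**Figure D3:**
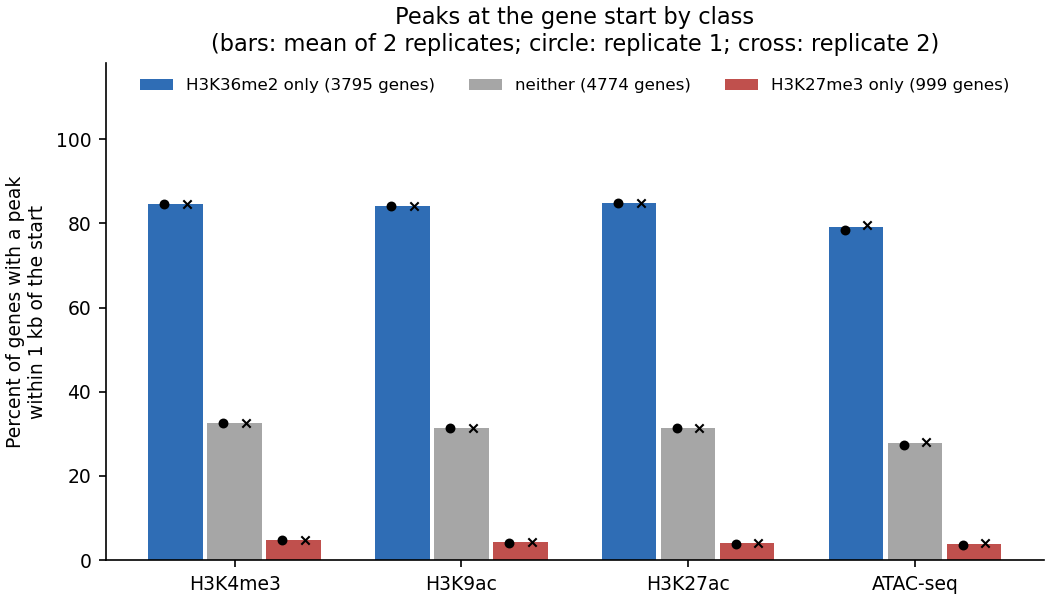
Percent of genes with a peak within 1 kb of the start (vertical axis) for 4 assays, by class, where bars are the mean of 2 replicates, circles replicate 1 and crosses replicate 2. The H3K36me2 only genes lie at 78.3% or above, class neither between 27.4 and 32.6%, and H3K27me3 only genes at 4.70% or below.

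The share of marked starts moved with the amount of coverage. Among genes below 20% of H3K27me3, H3K4me3 marked 21.5% of the starts of genes without H3K36me2, 59.2% of those with up to 20%, 79.9% with 20 to 50%, 84.6% with 50 to 80% and 92.7% above that. Genes in these bands had median spans of 47.3, 61.8, 48.1, 44.7 and 36.8 kb. Among genes below 20% of H3K36me2, the share was 38.7% without H3K27me3 and 9.42% with up to 20%. It was 5.29%, 3.90% and 2.33% in the higher bands of H3K27me3. With H3K4me3 replicate 1 alone the lowest and highest bands of H3K36me2 gave 21.7 and 92.8%, and with replicate 2 alone 21.5 and 92.7%.

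Each mark was lower towards the ends of genes than in their middle within its own class. In class H3K36me2 only, the outermost 10% of the span at both ends had a mean coverage of 47.8%, against 59.6% in the next 10% and 61.0% in the middle. The same stretches had 60.8%, 72.0% and 73.3% in replicate 1, and 59.4%, 71.3% and 73.0% in replicate 2. H3K27me3 in class H3K27me3 only rose from 41.4% at the ends to 50.1% in the middle, and from 50.1 to 60.1% in replicate 1 and 57.4 to 65.9% in replicate 2. In class neither, H3K36me2 was instead higher at the ends, with 3.56% there and 2.37% in the middle. Its values were 7.94 and 6.69% in replicate 1 and 8.16 and 6.90% in replicate 2. In class H3K27me3 only, H3K36me2 had 1.24% at the ends and 0.209% in the middle.

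Each mark also extended beyond the genes. In the 20 kb to either side of H3K27me3 only genes, H3K27me3 had a mean coverage of 40.2% in replicate 1 and 45.3% in replicate 2, and H3K36me2 had 6.97% and 6.80%. Beside H3K36me2 only genes, H3K36me2 had 36.2% and 35.5%, and H3K27me3 had 3.70% and 4.17%. Genes of class neither had 5.67% and 6.87% of H3K27me3 and 11.7% and 11.5% of H3K36me2 in their flanks.

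Longer genes were less often H3K36me2 only. The share of H3K27me3 only rose with length up to 500 kb and was lower in the genes above that. Class neither held 48.2% of the genes of 20 to 50 kb and 76.3% of those of at least 500 kb. Of 4851 genes of 20 to 50 kb, 43.9% were H3K36me2 only and 7.81% were H3K27me3 only. Of 729 genes of 200 to 500 kb, 23.9% and 19.1% were, and of 215 genes of at least 500 kb, 6.98% and 16.3% were. For H3K36me2 only, both single replicates gave 51.8% in the shortest genes and 11.2% in the longest. For H3K27me3 only they gave 10.8 and 12.2% in the shortest, 25.1 and 27.7% at 200 to 500 kb and 21.4 and 22.3% in the longest genes. The median span was 67.8 kb in class H3K27me3 only, 44.0 kb in H3K36me2 only, 133.9 kb in both and 51.2 kb in neither.

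The classes were unevenly spread over chromosomes. Class H3K36me2 only held 56.5% of the 628 genes of chromosome 11 and 12.3% of the 399 genes of chromosome 14. Single replicates gave 61.8 and 61.6% on chromosome 11 and 28.1 and 26.3% on chromosome 14. Class H3K27me3 only held 21.4% of genes on chromosome 19 (26.9 and 29.7% in single replicates) and 18.7% on chromosome 15 (21.4 and 21.7%). It held 4.01% on chromosome 14 (7.27 and 10.3%) and 4.40% on chromosome 4 (8.32 and 8.79%). The SD between replicates was at most 3.46 percentage points for H3K27me3 only, on chromosome 18, and at most 1.30 points for H3K36me2 only, so that the ends of each order differed by more than the replicates.

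Chromosome 15 lay above the autosomal total in both marks, as did chromosomes 9, 10 and 11. Chromosomes 14 and 16 lay below it in both, as did chromosomes 2, 3, 7 and 13. Over all autosomes, H3K27me3 covered 7.72% of the summed gene span and H3K36me2 covered 17.1%. H3K27me3 covered 18.8% of the summed gene span of chromosome 15 and H3K36me2 covered 22.4%. The corresponding values were 2.39% and 4.98% on chromosome 14, and 3.37% and 7.31% on chromosome 16. Class neither held 83.7% of the genes of chromosome 14 (64.7 and 63.4% in single replicates) and 70.6% of those of chromosome 16 (50.0 and 50.3%), against 29.3% on chromosome 11 (21.3 and 19.6%).

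Other values moved with the low coverage of chromosomes 14 and 16. Of the base pairs in either replicate, 31.1% on chromosome 14 and 33.2% on chromosome 16 were in both replicates of H3K27me3, against a median of 48.7% over the autosomes. For H3K36me2, the shares were 32.5% and 39.6%, against 57.8%. The median called interval of chromosome 14 was 4.00 kb for H3K27me3 and 3.80 kb for H3K36me2, where the medians over autosomes were 5.00 and 5.40 kb. Their part in the class shares was not tested.

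H3K4me3 marked 44.6% of the starts of chromosome 14 and 50.0% of those of chromosome 16, against a median of 50.2% over the autosomes, with 43.4% on chromosome 3 as the lowest share. ATAC-seq peaks lay at 35.3% of the starts of chromosome 14, the lowest share of the 19 autosomes, whose median was 43.3%. Of the 178 genes of chromosome 14 with H3K4me3 at the start, 24.7% were H3K36me2 only, against 40.7% on chromosome 16, a median of 67.6% over the autosomes and 84.6% on chromosome 15. In single replicates of the broad marks, the share on chromosome 14 was 55.6 and 52.2%, and it remained the lowest of the 19 autosomes in each.

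**Figure D4:**
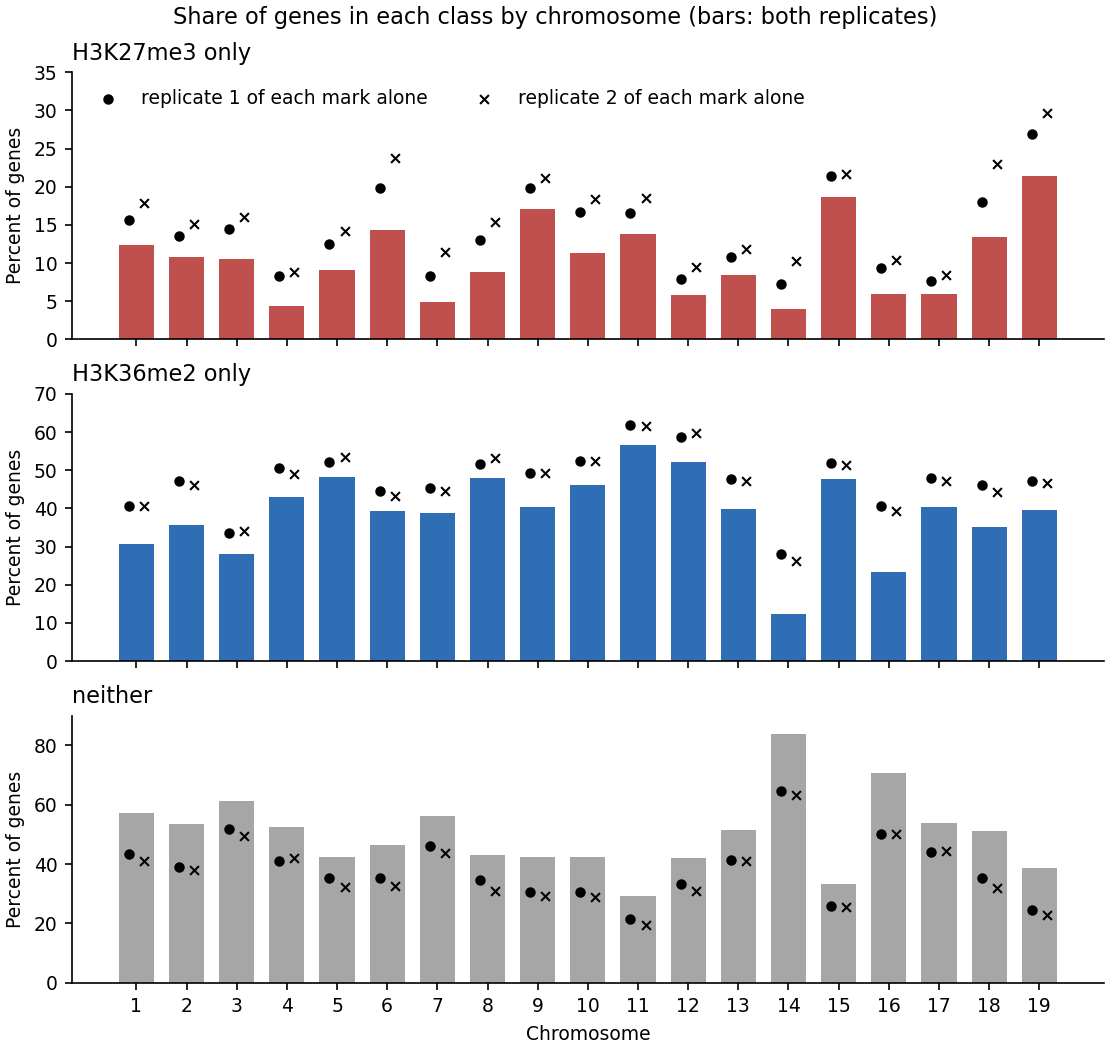
Percent of genes (vertical axes) in class H3K27me3 only, H3K36me2 only and neither on each of 19 autosomes (horizontal axis). Bars count base pairs in both replicates, circles are replicate 1 and crosses replicate 2 of each mark alone. Chromosome 14 has the lowest bar for H3K36me2 only (12.3%) and the highest for neither (83.7%).

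Genes with a single mark lay next to genes of their own class more often than the share of that class among all genes. Among the classified neighbours of H3K36me2 only genes, 55.6% were of the same class, which holds 39.6% of all genes. Neighbours of H3K27me3 only genes were of the same class in 32.7% and H3K36me2 only in 32.8%, although the former class holds 10.4% of all genes. Without genes that overlap another, the same-class shares were 53.1% and 32.4%. Neighbouring genes can lie under the same interval, so that they are not independent.

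Uninterrupted rows of classified genes of a single class were longest for class neither, and the 7 genes of class both each stood alone. Rows of 1 gene were common in every class. They were 464 of 672 rows of H3K27me3 only, 805 of 1689 of H3K36me2 only and 922 of 1711 of neither. The longest H3K36me2 only row held 16 genes over 1.67 Mb of chromosome 8, from Zfpm1 to Nup133, and included the DNA repair gene Fanca and the corepressor gene Cbfa2t3. Another of 15 genes over 1.70 Mb of chromosome 7 included the leukocyte genes Spn and Itgal. The H3K27me3 only rows held at most 6 genes. One of them covered Trpm6, Rorb, Aldh1a1, Aldh1a7, Tmc1 and Gda on chromosome 19, and another covered Cadm1, Nxpe4, Nxpe2, Nnmt, Zbtb16 and Htr3b on chromosome 9. The longest row of class neither held 100 genes over 47.0 Mb of chromosome 3.

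Genes of T cells were mostly H3K36me2 only. The shares to set beside each list are those over all genes, of which 39.6% were H3K36me2 only, 10.4% H3K27me3 only and 49.9% neither. Of 31 classified genes of T cell receptor signalling, 20 were H3K36me2 only (64.5%), 1 was H3K27me3 only and 10 were neither, with a median H3K36me2 coverage of 52.1% against 5.64% over all genes. The kinase gene Fyn had 95.0% and 92.7% under H3K36me2 in replicates 1 and 2, and the selection factor gene Themis had 49.2% and 55.4%. The single H3K27me3 only gene was Icos, a costimulatory receptor, with 28.6% in each replicate. The gene Ptprc, which encodes CD45, was neither, with 23.02% and 20.3% under H3K36me2 of which 3.72% was common, and its start held H3K4me3.

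Of 26 transcription factors of the T lineage, 19 were H3K36me2 only (73.1%, against 39.6% of all genes), 1 was H3K27me3 only and 6 were neither. Foxp1 had 77.0% and 67.8% under H3K36me2, Tox had 68.5% and 71.3%, and Runx1 had 69.4% and 62.7%. Bach2 was the H3K27me3 only member, with 39.6% and 43.0%. Satb1 was neither, with 2.26% and 0% under H3K27me3 and 0% under H3K36me2.

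Lists of other blood lineages were small, and their counts depended on the threshold. Of 10 B lineage genes, 4 were H3K27me3 only, against 10.4% of all genes, 2 were H3K36me2 only and 4 were neither. At a threshold of 50% of the span, 0 of the 10 were H3K27me3 only, against 4.13% of all genes. The pioneer factor gene Ebf1 had 63.2% and 63.5% under H3K27me3, Pax5 had 32.5% and 45.9%, the kinase gene Syk had 35.9% and 72.5%, and Blk had 36.9% and 51.9%. Irf8 and Pou2af1 were H3K36me2 only, with 100% of Irf8 covered in each replicate. Of 15 myeloid genes, 4 were H3K27me3 only (26.7%), 1 was H3K36me2 only and 10 were neither, and at 50% of the span 1 was H3K27me3 only. The receptor gene Csf1r had 51.7% and 31.4% under H3K27me3.

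Lists of chromatin, DNA and RNA metabolism had H3K36me2 only shares from 51.0 to 77.1%, against 39.6% of all genes. Of 48 histone lysine methylation enzymes and PRC2 subunits, 37 were H3K36me2 only (77.1%), 0 were H3K27me3 only and 11 were neither. The H3K36 methyltransferase gene Ash1l had 70.4% and 66.2% under H3K36me2, whereas Setd2, whose product adds the third methyl group there, had 25.6% and 17.6% with 4.18% in common and was neither. Of 57 genes of DNA replication and repair, 43 were H3K36me2 only (75.4%), 1 was H3K27me3 only, the polymerase gene Poln, and 13 were neither. Of 71 genes of mRNA processing, 43 were H3K36me2 only (60.6%), 1 was H3K27me3 only, the helicase gene Ddx43, and 27 were neither.

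Ubiquitin ligases and proteases had 52 H3K36me2 only genes among 81 (64.2%, against 39.6% of all genes), with 1 H3K27me3 only gene, Hectd2, at 97.6% and 95.6%. Chromatin remodelling and cohesin genes had 26 H3K36me2 only genes, 1 H3K27me3 only gene and 24 neither among 51, and its H3K36me2 only share of 51.0% was the closest of these lists to that of all genes. In single replicates, 36 of these genes were H3K36me2 only in each (70.6%), against 47.5% and 47.1% of all genes. The cohesin gene Stag1 was 1 of the 24 called neither, with 32.2% and 36.4% under H3K36me2 and 14.8% in common.

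Genes of neurons and of tissue structure were seldom H3K36me2 only, against 39.6% of all genes. These lists also had longer median spans than all genes, and the part of length in their shares was not tested. Of 53 genes of neural cell adhesion and guidance, 3 were H3K36me2 only (5.66%), 7 were H3K27me3 only (13.2%, near the 10.4% of all genes) and 43 were neither, and their median span was 740 kb against 49.3 kb over all genes. Among all genes of at least 500 kb, 6.98% were H3K36me2 only and 16.3% were H3K27me3 only, near the shares of this list. Without replicate 1 of both marks, 12 of the 53 were H3K27me3 only (22.6%, against 15.9% of all genes). Without replicate 2 of both marks, 10 were (18.9%, against 13.9% of all genes). Opcml had 52.2% and 62.5% under H3K27me3. Of 125 neurotransmitter receptors and ion channels, 5 were H3K36me2 only (4.00%), 26 were H3K27me3 only (20.8%), 93 were neither and Kcnip1 was both. Their median span was 122 kb. Among all genes of 100 to 200 kb, 34.8% were H3K36me2 only and 14.3% were H3K27me3 only. Without replicate 1, 9 of the 125 were H3K36me2 only and 45 were H3K27me3 only, when 47.1% and 15.9% of all genes were. Without replicate 2, these counts were 6 and 34, when the shares of all genes were 47.5% and 13.9%. The glutamate receptor gene Grm8 had 62.8% and 67.1% under H3K27me3.

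Of 27 cadherins and protocadherins, 4 were H3K27me3 only (14.8%, near the 10.4% of all genes), among them Cdh1 of epithelial junctions with 22.8% and 24.9%, 0 were H3K36me2 only (39.6% of all genes were) and 23 were neither. Of them, 2 were H3K36me2 only in replicate 1 alone and 1 in replicate 2 alone, against 47.5% and 47.1% of all genes. Of 79 extracellular matrix genes, 26 were H3K27me3 only (32.9%), 7 were H3K36me2 only (8.86%) and 46 were neither. The median span was 153 kb in the cadherin list and 114 kb in the matrix list. Among all genes of 100 to 200 kb, 34.8% were H3K36me2 only and 14.3% were H3K27me3 only. The laminin gene Lama2 had 59.3% and 66.7% under H3K27me3 and the collagen gene Col25a1 had 69.6% and 76.4%. Of 53 developmental transcription factors, 8 were H3K27me3 only (15.1%), 8 were H3K36me2 only (15.1%) and 37 were neither. The equal counts did not hold in other settings. They were 14 and 9 without replicate 1, 9 and 8 without replicate 2, and 1 and 4 at a threshold of 50%. Npas3 had 58.3% and 68.6% under H3K27me3, and Zfhx3 had 84.1% and 83.0% under H3K36me2. Of the genes found for this list, 101 of 154 were outside the classified set, as they were shorter than 20 kb or not autosomal.

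Exchange factors and cytokine receptors had shares near those of all genes. Guanine nucleotide exchange factors had 19 H3K36me2 only (43.2%, against 39.6% of all genes), 5 H3K27me3 only (11.4%) and 19 neither among 44 genes, with Dock1 as both. Their median span was 131 kb against 49.3 kb over all genes. Among all genes of 100 to 200 kb, 34.8% were H3K36me2 only and 14.3% were H3K27me3 only. The part of length in the shares of this list was not tested. Dock2, the exchange factor of lymphocytes, had 64.7% and 66.6% under H3K36me2, and Dock3, its neuronal relative, had 75.5% and 78.0% under H3K27me3. Cytokine and chemokine receptors had 16 H3K36me2 only (37.2%), 6 H3K27me3 only and 21 neither among 43 genes. In the interleukin-1 receptor family, Il1r1 had 86.3% and 88.0% and Il1rl2 had 93.6% and 95.8% under H3K27me3, whereas Il1rl1 had 64.6% and 65.3% under H3K36me2. Of 73 vomeronasal receptors, 61 were neither (83.6%, against 49.9% of all genes), 10 were H3K27me3 only and 2 were H3K36me2 only. In replicates 1 and 2 alone, 7 and 8 were H3K36me2 only, and these near-identical copies are uncertain because reads without a unique position had been discarded.

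**Figure D5:**
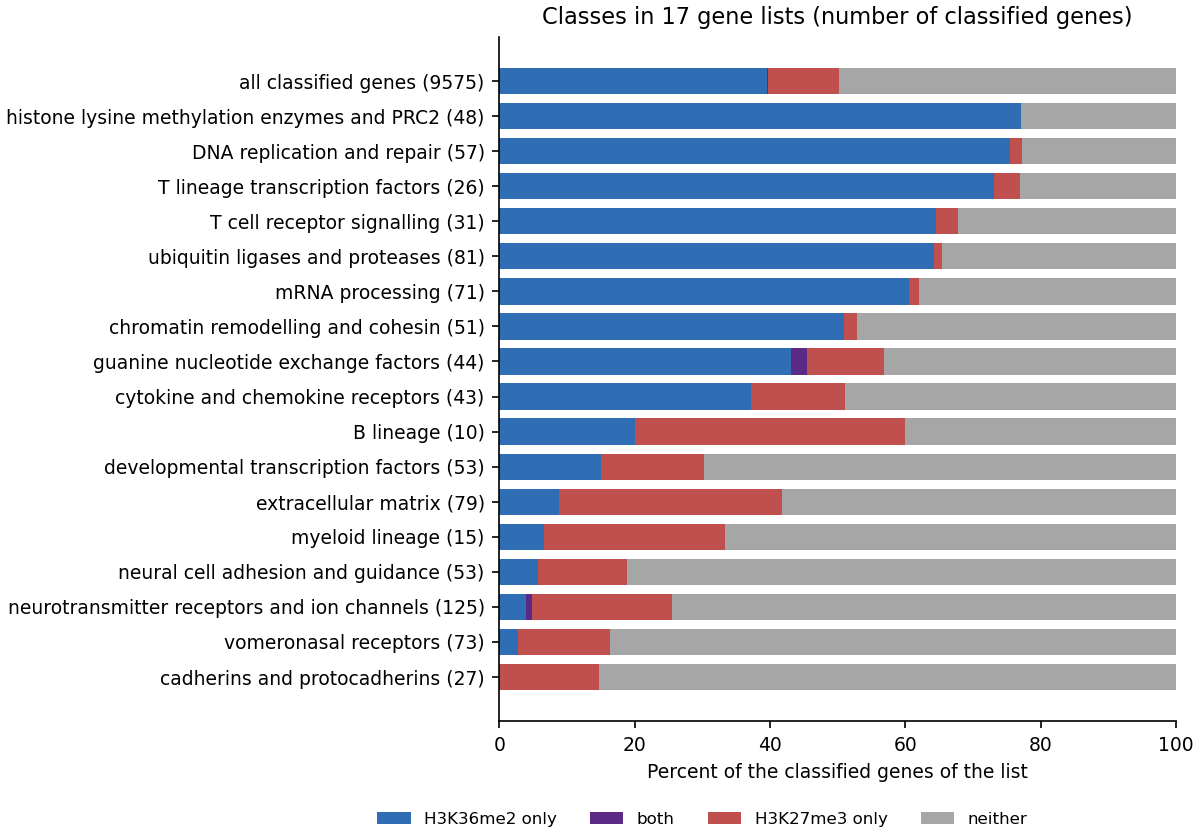
Percent of the classified genes of 17 lists (vertical axis, number of genes in parentheses) in each class (horizontal axis), with all 9575 genes in the top row. H3K36me2 only genes make up 77.1% of the list of histone lysine methylation enzymes and 0% of the cadherins, and H3K27me3 only genes make up 4 of the 10 genes of the B lineage list.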

How the data were processed

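EL4 cells were assayed by ATAC-seq and by ChIP-seq of 5 histone marks, with 2 replicates each. According to the methods, the authors aligned reads with STAR (version 2.5 per the submitters' processing notes) to GRCm38, kept unique alignments, treated duplicates with Picard, and called broad marks with Epic and the other lists with MACS2, using input DNA as a control in the ChIP-seq calls. The deposited lists, 1 for each library, hold positions of called intervals without scores or counts, so depth is unknown and no interval for counting error was computed. A called interval depends on depth and caller, and broad intervals lie on bins of 200 bp. Input and RNA-seq samples were not used here.

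Replicates were intersected, and coverage was computed over the spans of RefSeq genes (GRCm38.p6). Strand came from the RefSeq promoter table, which matched 7569 of 9575 genes (79.0%). A comparison of promoter CG content between classes was void, since fewer than 80% of genes had a window. Coverage was tested on simulated data and checked against bedtools 2.31.1. Tools were Python 3.11.15, numpy 2.4.6, pandas 2.3.3 and matplotlib 3.10.9.

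No test was run, and values of each replicate were given. The classes, the 17 gene lists and the rules for naming genes were chosen with earlier results of these data known. Named were all genes of class both, the 8 genes of highest coverage of at least 100 kb in each class with a single mark, the 4 longest of class neither, and, for each mark, the 2 genes on either side of the 20% limit and the 2 with the largest difference between replicates. From each list, genes were named among the 4 longest of each class, and those printed were picked from these with their values seen. Genes with provisional symbols were passed over, and some genes that these rules name are not reported here. Pcgf5, Phc2, the genes with both marks at the same position and the members of rows were named after their values were seen. Alternatives were other thresholds, minimum spans, interval lengths, ways to combine replicates, windows at the start and the removal of overlapping genes. The removal of chromosome 14, 20% reached in each replicate alone, starts of known strand only and both ends of every gene were added after seeing the data, as were the stretches compared within genes, the order of the marks and the values per chromosome beside the classes.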

Additional observations from a re-analysis of the deposited data

Results flagged for a closer look

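Chromosome X lay outside the comparison, and according to the methods reads on the sex chromosomes had been discarded, but the lists held intervals on it. H3K27me3 had 524 intervals on chromosome X in replicate 1 and 396 in replicate 2, over 2.01 and 2.22 Mb. H3K36me2 had 331 and 350 intervals, over 1.20 and 1.11 Mb. No list of a control sample was used here to set beside them. By the same rule, 12 of the 400 protein-coding genes of chromosome X of at least 20 kb were H3K27me3 only, 0 were H3K36me2 only or both and 388 were neither.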

How the results depend on the processing

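No paired analysis was possible because the results come from no test. Coverage depends on where the caller set interval ends, which differed between replicates, and depth is unknown. The differences in marked starts between classes kept their direction in the alternatives that were run.

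Class both depended most on the settings. It held 60 genes with base pairs of either replicate, 13 to 33 when a replicate was left out, 17 when 20% had to be reached in each replicate alone (added after seeing the data), 53 at a threshold of 10% and 0 at 30 or 50%. It held 2 genes with intervals of at least 5 kb, 11 with intervals within 1 kb joined, 12 without the outer 3 kb of the span and 4 without overlapping genes. Class H3K27me3 only held 1757 genes with either replicate, 986 to 1538 when a replicate was left out (1538 without H3K27me3 replicate 1), 395 at a threshold of 50%, and 620 and 369 among genes of at least 50 and 100 kb. Class H3K36me2 only held 2240 at 50%, 3788 to 4553 when a replicate was left out, and 1664 and 665 among those longer genes. Class neither held 2832 with either replicate, 3514 to 4430 when a replicate was left out, and 2434 and 1273 among the longer genes.

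The difference in marked starts between H3K36me2 only and H3K27me3 only genes, in percentage points, was 79.9 (H3K4me3), 80.03 (H3K9ac), 80.6 (H3K27ac) and 73.4 (ATAC-seq). With 200 bp shared it was 79.3, 79.2, 79.8 and 71.4 in this order, with either replicate 79.8, 79.9, 80.9 and 77.0, and from 3 kb outside to 2 kb inside the start 81.4, 81.7, 82.3 and 76.5. In alternatives added after seeing the data, it was, with both ends of every gene, 78.8, 79.1 and 80.01 for the histone marks, and with known strands only 79.8 for H3K9ac and 80.2 for H3K27ac. Leaving out a replicate gave 79.8 to 79.9, 79.91 to 80.03, 80.7 to 80.8 and 74.8 to 75.7.

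Class neither on chromosome 14 held 70.9% of genes at a threshold of 10%, 97.7% at 50%, 50.9% with either replicate and 63.4 to 64.7% when a replicate was left out. On chromosome 11 these values were 21.3, 55.3, 14.5 and 19.6 to 21.3%. Chromosome 14 kept the highest share of neither in all of these, and chromosome 11 the lowest except at 50%, where chromosome 15 had 50.5%. The lowest share of H3K27me3 only moved from chromosome 14 to chromosome 4 at 10% and to chromosome 17 with replicate 2 alone or either replicate, and its highest from chromosome 19 to 15 at 50%. The lowest share of H3K36me2 only moved to chromosome 3 with either replicate. Of the counts for gene lists under alternatives, 115 stayed within 1.5 times and 55 did not. The causes were not tested.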
